A study of Homo sapiens with 4 samples.

Results

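The HOX genes of T47D cells were examined across a progestin treatment, as every gene symbol made of HOX, a cluster letter from A to D and a paralogue number. This rule found 39 of the 23287 gene symbols in the RNA-seq files, 11 of the HOXA, 10 of the HOXB, 9 of the HOXC and 9 of the HOXD cluster, with 47 RefSeq transcripts. T47D is an established luminal breast cancer cell line rich in progesterone receptor (PR). For RNA-seq the cells were kept in charcoal-stripped serum and then received 10 nM R5020, a synthetic progestin, or EtOH, its vehicle, for 3 h. PR binding was mapped by ChIP-seq after 1 h of 10 nM R5020, with input DNA as the control of the peak calling. Per the paper, the ChIP-seq cells were kept in charcoal-stripped serum for longer than the RNA-seq cells. Each condition held 1 library, so no spread between cultures could be measured, no p-value is given, and every difference below is between 2 libraries.

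HOX genes encode homeodomain transcription factors that set the identity of body segments in the embryo. They stand in 4 clusters in which gene order follows the order of expression along the body axis, and genes of the same paralogue number in different clusters descend from a common ancestor. Polycomb proteins keep HOX genes silent, trithorax proteins keep them active, retinoic acid is a classical inducer, and PBX and MEIS proteins bind DNA together with HOX proteins. Adult epithelia such as the mammary gland keep a subset of these genes active. PR is a nuclear receptor that on binding a progestin attaches to DNA, classically at an inverted repeat of a 6-base half-site.

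The libraries held the transcripts of luminal cells. *GATA3* stood at 253.2 FPKM in EtOH and 126.3 FPKM in R5020, and *KRT19*, *CDH1*, *ESR1*, *PGR* and *FOXA1* were above 10 FPKM in both (FPKM, the fragments of a transcript scaled to its length in kilobases and to library depth). Of the 8 luminal markers 4 (*GATA3*, *FOXA1*, *ESR1* and *PGR*) were at least 1.5-fold lower in R5020, *FOXA1* from 64.3 to 14.7 FPKM, and their part in the HOX values was not tested. Of all genes with 1 FPKM or more in at least 1 library, 4.14% were at least 1.5-fold lower. *PGR*, from 23.7 to 15.3 FPKM, only just passed the 1.5-fold threshold, and part of its estimate was marked as resting on low data in both libraries. *KRT8* and *KRT18* were listed at 0 in EtOH with a failed estimate, so that 0 is no measurement. Of 8 markers of other cell types 2 reached 1 FPKM, *COL1A1* at 5.12 and 3.31 FPKM and *ACTA2* at 1.93 and 1.35 FPKM in EtOH and R5020. *PTPRC* and *KRT14* stayed below 0.02 FPKM. The deposited coverage of the listed transcripts corresponds to 35151493 reads of 50 nt in EtOH and 36203604 in R5020, which is the coverage of these transcripts and not the depth of the libraries.

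T47D cells transcribed HOXB and HOXC genes and almost nothing of HOXA and HOXD. A gene's level is the sum of the FPKM of its transcripts, and a gene was called expressed at 1 FPKM. By that measure 9 HOX genes were expressed, the same 9 in both libraries: *HOXB2*, *HOXB3*, *HOXC4*, *HOXC6*, *HOXC8*, *HOXC9*, *HOXC10*, *HOXC11* and *HOXC13*. Another 15 were above 0 but below 1 FPKM, and 15 were listed at 0 in both libraries. The 9 HOXD genes summed to 0 FPKM in EtOH and 0.086 FPKM in R5020, from *HOXD1* and *HOXD10*. The 11 HOXA genes summed to 1.22 and 1.02 FPKM, of which *HOXA5* gave 0.691 and 0.540 FPKM. HOXC genes made up 66.5% of the summed HOX FPKM in EtOH and 73.9% in R5020, and HOXB genes 32.4% and 24.4%. These levels depend on the deposited column used. For 7 of the 10 HOX transcripts above 1 FPKM in each library, those of *HOXB2*, *HOXB3*, *HOXC6*, *HOXC8*, *HOXC10*, *HOXC11* and *HOXC13*, the FPKM lay outside its own deposited interval. From the midpoints of the intervals HOXC genes made up 80.6% and 83.1% and HOXB genes 17.9% and 14.6% of the HOX sum.

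**Figure D1:**
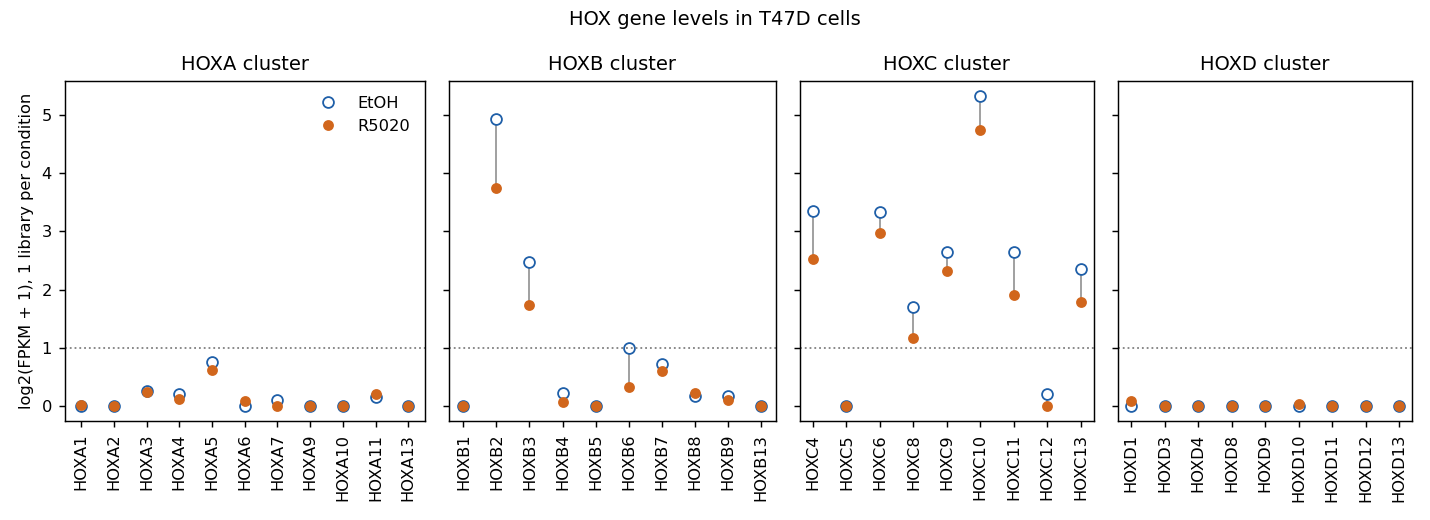
Level of each of the 39 HOX genes, as log2(FPKM + 1), in the EtOH library (open blue) and the R5020 library (filled orange), by cluster and in order of paralogue number, with 1 library per condition; the dotted line marks 1 FPKM. The 9 genes above the line lie in HOXB and HOXC, and each was lower in R5020.

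All 9 expressed HOX genes were lower after R5020, and 4 of them, *HOXB2*, *HOXB3*, *HOXC4* and *HOXC11*, were at least 1.5-fold lower. Changes are given as log2 ratios of R5020 to EtOH after 1 was added to each FPKM value, which understates the change of low genes. None of the 9 was at least 1.5-fold higher. Of all 11018 genes with 1 FPKM or more in at least 1 library, 456 or 4.14% were at least 1.5-fold lower, 7.67% at least 1.5-fold higher, and 49.1% lower by any amount. Failed estimates were not removed, so *KRT8* and *KRT18*, with their 0 in EtOH, count among the higher genes. The median of the 9 HOX genes was -0.58, and that of the 11018 genes was 0.01. Because all 9 genes were at 1 FPKM or more in both libraries, the closer background is the 10225 genes of which this also holds, and 2.92% of those were at least 1.5-fold lower and 48.5% lower by any amount. The 9 genes lie next to each other in 2 clusters and are not independent of each other.

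*HOXB2* had the lowest log2 ratio of the HOX genes. This gene near the anterior end of the HOXB cluster, a regulator of hindbrain segments, lies at chr17:46620019-46622393 on the minus strand (hg19). It was at 29.6 FPKM in EtOH and 12.4 FPKM in R5020, a log2 ratio of -1.19, which ranked 109 from the lowest of the 11018 genes. Its estimated reads went from 4452 to 1799. Its deposited FPKM lay outside its own deposited interval in both libraries, and the midpoints of those intervals were 8.10 and 3.89, a log2 ratio of -0.90 on the same scale. *HOXB2* was thus lower in R5020 by the FPKM and by its interval, while the level itself differed between the deposited columns. The reads were derived from the coverage deposited with the FPKM of the same 2 libraries, so they are no independent count.

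*HOXB3*, its neighbour, which acts with it in the hindbrain, was at 4.56 FPKM in EtOH and 2.31 FPKM in R5020, a log2 ratio of -0.75. *HOXB6*, a trunk gene, was at 0.996 FPKM in EtOH, just under the filter of 1 FPKM, and at 0.253 FPKM in R5020, with a log2 ratio of -0.67. *HOXB7*, also of the trunk, was at 0.643 and 0.521 FPKM. The HOXB cluster as a whole went from 36.2 to 15.8 FPKM, a log2 ratio of -1.15 of the sums, and *HOXB2* carried most of both sums.

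In HOXC the level did not follow the order of the genes along the cluster. *HOXC10*, a gene of the lumbar region and the hindlimb, was the highest of all 39 at 39.0 FPKM in EtOH and 25.7 FPKM in R5020. Its log2 ratio of -0.58 stands for a 1.4997-fold difference, just inside the 1.5-fold threshold, so whether it is counted depends on the exact scale. *HOXC11* and *HOXC13* lie next in the posterior direction among the expressed genes. *HOXC11* was at 5.27 and 2.74 FPKM, a log2 ratio of -0.75. *HOXC13*, known for its role in hair and nail formation, was at 4.13 and 2.47 FPKM, a log2 ratio of -0.57. *HOXC12*, between these 2 genes, was at 0.148 FPKM in EtOH and listed at 0 in R5020.

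Among the more anterior HOXC genes, *HOXC8*, a regulator of thoracic identity, was at 2.23 FPKM in EtOH and 1.24 FPKM in R5020, a log2 ratio of -0.53. *HOXC9*, which acts in thoracic motor neurons, was at 5.24 and 3.96 FPKM, a log2 ratio of -0.33. *HOXC4* was at 9.20 and 4.74 FPKM, a log2 ratio of -0.83. *HOXC6* was at 9.04 and 6.87 FPKM, a log2 ratio of -0.35. Without *HOXC10* the HOXC sum still went from 35.3 to 22.0 FPKM, a log2 ratio of -0.66, against -0.63 for the whole cluster, from 74.3 to 47.7 FPKM.

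**Figure D2:**
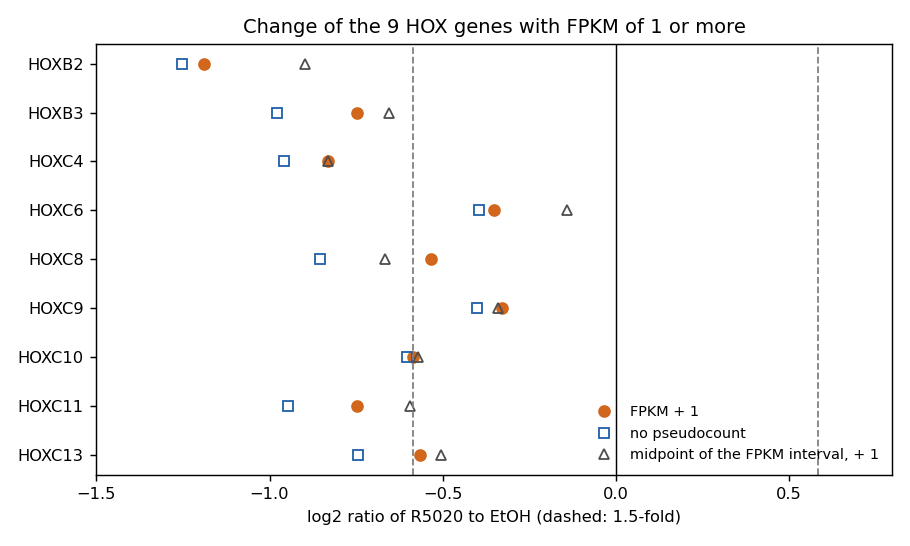
Log2 ratio of R5020 to EtOH for the 9 expressed HOX genes, computed from FPKM + 1 (orange circles), from FPKM with no pseudocount (blue squares) and from the midpoint of the deposited FPKM interval + 1 (grey triangles), with dashed lines at 1.5-fold. Every point lies below 0, and *HOXC10* sits on the lower dashed line at -0.58.

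*HOXC4*, *HOXC5* and *HOXC6* share an upstream start, and the long transcripts from it differed from each other. The *HOXC6* transcript from its own start, NM_004503, was at 9.04 FPKM in EtOH and 4.80 FPKM in R5020, a log2 ratio of -0.79. The long *HOXC6* transcript from the shared start, NM_153693, was listed at 0 in EtOH and at 2.07 FPKM in R5020. The long *HOXC4* transcript from the same start, NM_014620, went the other way, from 2.48 to 0.889 FPKM, a log2 ratio of -0.88. Together the transcripts of the shared start were at 2.48 FPKM in EtOH and 2.96 FPKM in R5020, a log2 ratio of 0.18. The short *HOXC4* transcript, NM_153633, was at 6.72 and 3.85 FPKM, a log2 ratio of -0.67. These transcripts overlap, and how the reads were divided among them was not tested. In the same way *HOXA3* was listed with its shorter extent, NM_030661, at 0 and 0.177 FPKM and with its longer one, NM_153631, at 0.200 and 0 FPKM.

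Grouped by paralogue number, the sums of groups 2, 4, 3 and 11 were at least 1.5-fold lower in R5020, with log2 ratios of -1.19, -0.84, -0.72 and -0.72. Group 10 followed at -0.58, 13 at -0.57, 8 at -0.49, 6 at -0.43 and 9 at -0.33. Each of these 9 sums rested on 1 expressed gene, so the paralogue sums restate the gene values. Groups 5, 7 and 12, with no expressed gene, were at -0.13, -0.17 and -0.20, and group 1 was at 0.10, from 0 to 0.075 FPKM. Of the 15 genes above 0 and below 1 FPKM, 9 were lower and 6 higher in R5020, and none of the 6 exceeded 0.165 FPKM in either library. All 39 genes together went from 111.7 to 64.6 FPKM, a log2 ratio of -0.78. Without *HOXB2* and *HOXC10*, the 2 highest genes, the other 37 went from 43.1 to 26.5 FPKM, a log2 ratio of -0.68.

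Most symbols on the list of noncoding RNAs of the clusters were listed at 0. Of 18 listed, 12 were at 0 in both libraries, among them *HOTTIP* and *HOTAIRM1* of HOXA, and 1 was expressed. The 12 include every microRNA gene on the list. Per the paper poly(A) RNA was sequenced, so a 0 for a microRNA gene does not measure the microRNA. The list was made by symbol and also holds *PRAC*, a gene for a small protein, at 0. It further holds *LOC100133669*, at 0.055 FPKM in EtOH and 0 in R5020, which does not lie in or within 50 kb of a HOX cluster. *HOTAIR*, transcribed from the HOXC cluster against the direction of its neighbours *HOXC11* and *HOXC12*, was at 6.03 FPKM in EtOH and 2.66 FPKM in R5020, a log2 ratio of -0.94. *LOC100240734*, a second noncoding locus of the HOXC window, singled out after its values were seen, was at 2.88 and 0.880 FPKM, a log2 ratio of -1.04. Of 9 genes that flank the clusters, 8 were expressed, none of them at least 1.5-fold changed, with a median log2 ratio of -0.09. Over the 11018 genes 4.14% were at least 1.5-fold lower and 7.67% higher. *SMUG1*, a DNA repair glycosylase beside HOXC, came nearest at 5.45 and 3.40 FPKM, a log2 ratio of -0.55. *CALCOCO1*, on the other side of HOXC, was at 10.1 and 8.62 FPKM, a log2 ratio of -0.21.

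PR binding was mapped at 21 sites in or within 50 kb of the clusters, out of 11181 sites in the genome, and HOXD had none. HOXB held 11, of which 8 lay between its outermost genes, HOXC 6, of which 5, and HOXA 4, of which 2. Per Mb of window this is 36.8 at HOXB against 11.6 over chromosome 17, 27.6 at HOXC against 5.10 over chromosome 12, and 19.3 at HOXA against 3.90 over chromosome 7. The genome had 3.68 sites per Mb and chromosome 2, which carries HOXD, 1.25. The nearest site to HOXD lay 798 kb from *HOXD13*. Clusters of close genes are not like an average Mb, so these densities are a description.

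**Figure D3:**
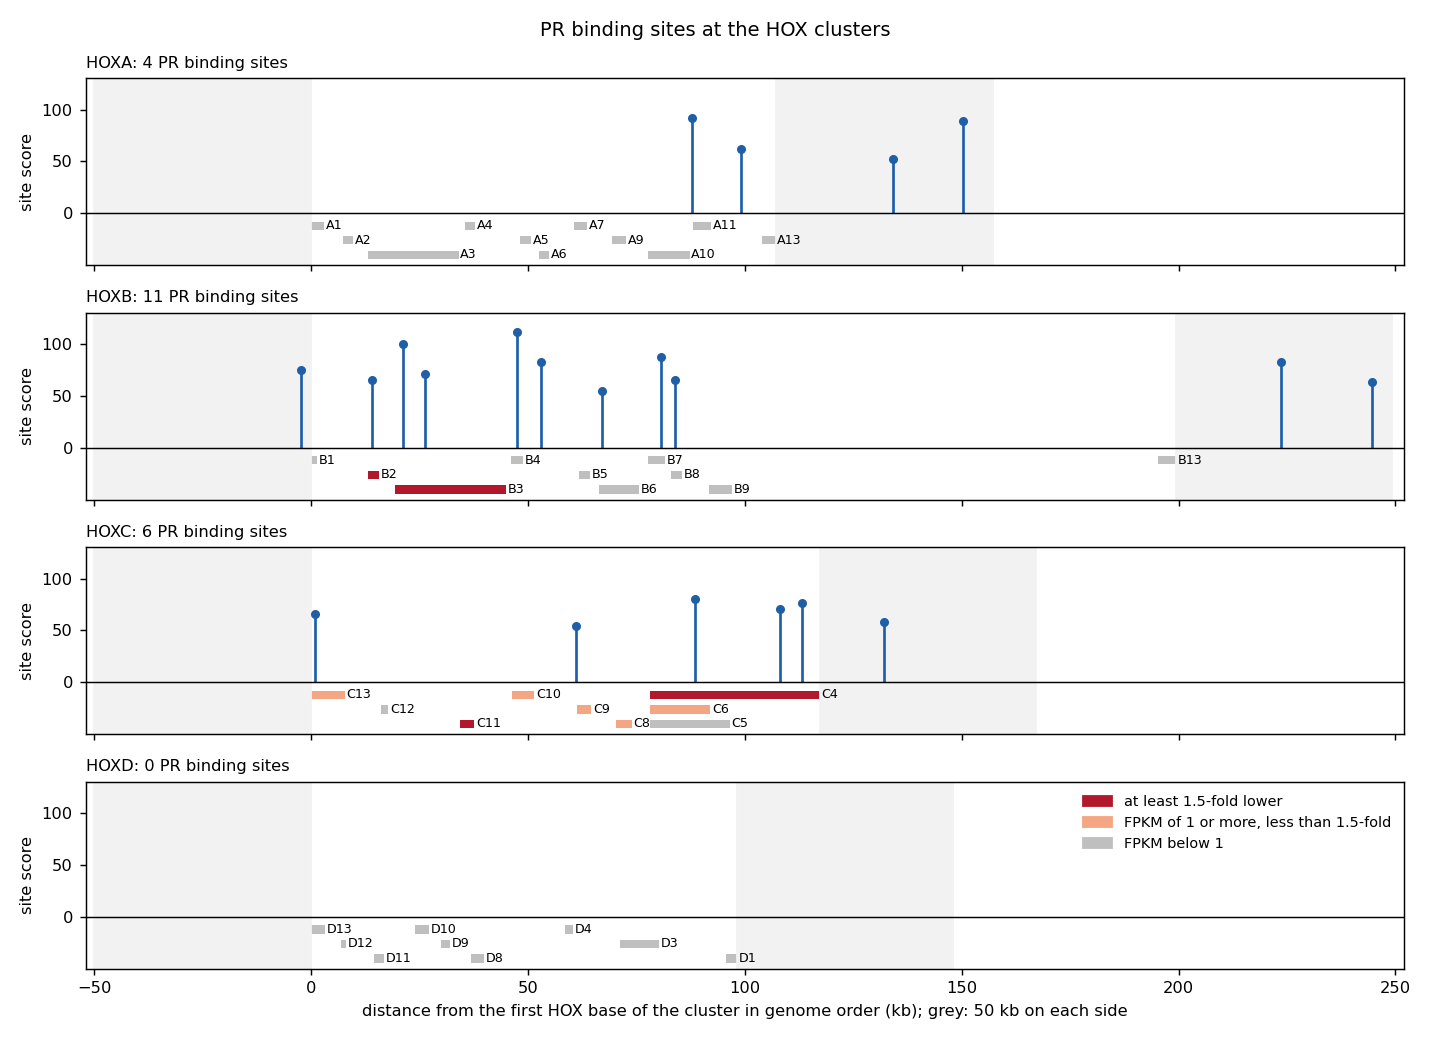
PR binding sites (blue stems, height = deposited score, which grows with the negative log10 of the p-value) and HOX genes (bars) at the 4 clusters, by distance in kb from the first HOX base of each cluster in genome order; grey shading marks the 50 kb beside each cluster. HOXB holds 11 sites, HOXC 6, HOXA 4 and HOXD none, and the expressed genes (red and pale red bars) lie in HOXB and HOXC.

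Counted by gene, 27 of the 39 HOX genes (69.2%) had a site within 50 kb, against 45.6% of all gene symbols. All 10 HOXB genes and all 9 HOXC genes had one, as had 8 of 11 HOXA genes and 0 of 9 HOXD genes. Because 1 site can lie within 50 kb of many HOX genes, these genes are not independent. Over all genes the share was 67.4% on chromosome 17, 54.4% on chromosome 12, 45.8% on chromosome 7 and 24.9% on chromosome 2. All 9 expressed HOX genes had a site within 50 kb, against 52.7% of all expressed genes and 61.0% of the genes at least 1.5-fold lower. A site overlapped 12 HOX genes (30.8%), 6 of them expressed, against 17.9% of all gene symbols. The 3 expressed genes that no site overlapped were *HOXC8*, *HOXC10* and *HOXC11*. *HOXC11* was thus at least 1.5-fold lower with its nearest site 23.2 kb away.

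The sites were of middling strength. The deposited score of a site is higher the lower the p-value of the peak caller. The scores ran from 52.6 to 111.2 with a median of 70.8, against a median of 74.5 over all sites, and 10 of the 21 reached that median. Of all sites, 1191 (10.7%) scored at least as high as the strongest HOX site, and the highest score was 1965. The strongest HOX site lay in *HOXB4*, followed by 1 in *HOXB3* at 99.7 and 1 at HOXA at 92.2, which lay 0.667 kb before the start of a noncoding *HOXA10* transcript. Both *HOXA10* transcripts were listed at 0.

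By position, 9 of the 21 sites had their midpoint within 2 kb of a HOX transcript start. Starts stand close together in these clusters, and no share over all sites was computed, so this count only describes position. In HOXC, a site of score 54.2 lay 0.200 kb before the *HOXC9* start and 1 of score 66.1 lay 0.851 kb after that of *HOXC13*, in its intron. A site of score 80.5 lay 1.22 kb before the own start of *HOXC6*, and 2 sites of scores 70.5 and 76.9 lay 6.99 and 1.80 kb before the start of the short *HOXC4* transcript. The sixth HOXC site, of score 58.0, lay beyond *HOXC4*. In HOXB, a site of score 88.0 lay 0.840 kb after the *HOXB7* start, and 1 of score 82.7 lay 3.99 kb before that of *HOXB4*. A site of score 70.8 lay in an intron of *HOXB3*. Beside the cluster, a site of score 75.1 lay past the end of *HOXB1*, and 2 of scores 82.5 and 63.9 lay 24.3 and 45.3 kb before *HOXB13*, the latter in an intron of *TTLL6*. In HOXA, the other sites were 6.88 kb before *HOXA11* at a score of 62.0, and 27.0 and 43.2 kb before *HOXA13* at 52.6 and 89.2.

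Several PR sites at the HOX clusters lay in coding sequence. The midpoint of 6 of the 21 sites (28.6%), 5 of the 15 inside the clusters, fell in an annotated coding exon, against 7.39% of all 11181 sites. Exons stand close together in these clusters, and no share over other positions in them was computed, so this count only describes position. The 6 exons belonged to *HOXB2*, *HOXB3*, *HOXB4*, *HOXB6*, *HOXB8* and, beside HOXA, *EVX1*, a homeobox gene linked to that cluster. Of these genes *HOXB2* and *HOXB3* were expressed, and *EVX1* was listed at 0.

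In 4 of these genes the site covered the homeobox itself, the stretch that encodes the DNA-binding domain. This search was made after the positions had been seen. The letters TGGTTNC followed directly by ANAANN and GNNG (N is any base), taken from the part of the homeobox that encodes the recognition helix and searched on both strands, occurred once in each of the 39 HOX genes. A PR site covered the match in *HOXB2*, *HOXB4*, *HOXB6* and *HOXB8*, 4 of the 10 HOXB genes, and in none of the 11 HOXA, 9 HOXC and 9 HOXD genes. In *HOXB3* the match began 8 bases from the edge of its site. Of 11178 sites searched over the genome, 9 (0.081%) held the letters, and 4 of the 9 are these. Because the letters were taken from the homeobox, the share over all sites is no background for sites in HOX genes. The covered stretches of *HOXB2* and *HOXB6* are shown because the called sites span the sequence that defines the gene family. These 2 sites were 491 and 380 bases wide, and where PR bound within them was not determined. Both are given 5′ to 3′ on the coding strand from the GRCh37 (hg19) genome, with the searched letters in capitals.
HOXB2 (chr17:46620874-46620993, minus strand): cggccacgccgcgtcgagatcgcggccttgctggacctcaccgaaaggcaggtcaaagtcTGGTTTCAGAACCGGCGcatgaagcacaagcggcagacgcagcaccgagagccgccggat
HOXB6 (chr17:46673814-46673933, minus strand): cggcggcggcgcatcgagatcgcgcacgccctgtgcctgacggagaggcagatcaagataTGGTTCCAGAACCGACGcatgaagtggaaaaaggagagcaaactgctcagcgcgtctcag
Both stretches lay wholly inside their site, and 64.2% of their 120 bases were the same. The 4 sites had scores of 65.5 in *HOXB2*, 111.2 in *HOXB4*, 55.2 in *HOXB6* and 65.8 in *HOXB8*. Among the 4 genes, *HOXB2* was expressed and lower in R5020, while *HOXB4* was at 0.169 and 0.052 FPKM, and *HOXB8* at 0.130 and 0.165 FPKM. *HOXB6* was, as above, just under 1 FPKM in EtOH.

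In the central 300 bases the median HOX site had 19 CpG against 6 over all sites, 17 of the 21 were above the median of all, and the median GC content was 62.7% against 57.3%. The composition of the clusters outside the sites was not measured, so these values do not set the sites apart from their surroundings. The inverted repeat, GNACA and TGTNC with 3 bases of any kind between them, was in 1 of the 21 (4.76%), against 1.89% of all sites and 14.3% of the top percent by score. The half-site TGTTCT, on either strand, was in 2 (9.52%), against 17.7% of all sites. The inverted repeat lay in an intron of *HOXC4*, 6.99 kb before the start of its short transcript, and a half-site in the neighbouring site, 1.80 kb before that start. They are shown because *HOXC4* was at least 1.5-fold lower and has a site with each kind of motif before that start. The letters are the plus strand of GRCh37, which is also the coding strand of *HOXC4*, with the motif in capitals.
HOXC4 intron, inverted repeat (chr12:54440540-54440808): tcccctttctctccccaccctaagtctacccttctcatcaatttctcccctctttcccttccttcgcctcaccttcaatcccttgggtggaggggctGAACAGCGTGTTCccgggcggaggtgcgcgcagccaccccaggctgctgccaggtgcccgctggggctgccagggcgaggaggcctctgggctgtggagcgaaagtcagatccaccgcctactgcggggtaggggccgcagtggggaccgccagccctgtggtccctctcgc
Before the short HOXC4 transcript, half-site (chr12:54445643-54445942): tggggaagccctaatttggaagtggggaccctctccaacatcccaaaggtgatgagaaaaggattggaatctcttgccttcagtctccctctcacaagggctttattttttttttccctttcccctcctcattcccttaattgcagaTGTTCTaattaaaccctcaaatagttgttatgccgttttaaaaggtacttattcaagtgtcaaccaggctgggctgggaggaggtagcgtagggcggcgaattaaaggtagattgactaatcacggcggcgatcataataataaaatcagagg
The other half-site of the central windows lay in the *HOXB8* site, which is 1 of those over a homeobox. Another half-site lay outside the central window, in the site 0.200 kb before the *HOXC9* start. Counts of 1 and 2 sites are too few to set the HOX sites apart from the rest. No match says only that these letters were not in the window searched.

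The expressed partners of HOX genes were all lower in R5020, while the regulators did not share 1 direction. Of 9 PBX, MEIS and PKNOX cofactors, 6 passed the filter of 1 FPKM. All 6 were below 0, where 49.1% of all 11018 genes were, and their median log2 ratio was -0.28. Of the 6, 2 were at least 1.5-fold lower and none higher. The 2 were *MEIS2*, at 1.97 FPKM in EtOH and 0.830 FPKM in R5020, and *MEIS1*, at 1.43 and 0.518 FPKM, so both were below 1 FPKM in R5020. *PKNOX1* was at 2.56 and 1.93 FPKM, a log2 ratio of -0.28.

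All 24 Polycomb and trithorax genes examined were expressed, with a median log2 ratio of 0.00, 12 below 0 and 12 above. None was at least 1.5-fold lower, against 4.14% of the 11018 genes with 1 FPKM or more in at least 1 library. At least 1.5-fold higher were 3, among them *RBBP7* and *JARID2*, against 7.67% of the 11018. *RBBP7*, a histone-binding protein of several complexes, was at 46.5 FPKM in EtOH and 89.0 FPKM in R5020, a log2 ratio of 0.92. *JARID2*, an accessory subunit of Polycomb repressive complex 2, was at 3.38 and 6.35 FPKM, a log2 ratio of 0.75. The chromodomain subunit *CBX7* was at 2.87 and 1.63 FPKM, a log2 ratio of -0.56. The methyltransferase *EZH2* was at 4.97 and 5.23 FPKM, a log2 ratio of 0.06.

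Of 15 receptors and enzymes of retinoic acid, 7 were expressed, 6 below 0 and 1 above, with a median of -0.45. Among the 7, 2 were at least 1.5-fold lower and 1 higher, against 4.14% and 7.67% of the 11018 genes. Both that were lower are receptors. *RARG* was at 5.45 FPKM in EtOH and 2.28 FPKM in R5020, a log2 ratio of -0.98, and *RARA* at 5.21 and 2.80 FPKM, a log2 ratio of -0.71. *RXRA*, their partner, was at 16.6 and 10.99 FPKM, a log2 ratio of -0.56. *ALDH1A3*, an enzyme that makes retinoic acid, was at 3.15 and 5.66 FPKM, a log2 ratio of 0.68.

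Of 21 ParaHox genes and homeobox genes linked to HOX clusters, 14 were listed at 0 in both libraries and 5 were expressed, of which 4 were above 0 and 1 below, with a median of 0.40. *DLX1* and *DLX2*, which lie together on the chromosome of HOXD, were at least 1.5-fold higher, as were 7.67% of the 11018 genes. *DLX1* was at 3.68 FPKM in EtOH and 6.44 FPKM in R5020, a log2 ratio of 0.67, and *DLX2* at 1.11 and 2.29 FPKM, a log2 ratio of 0.64. *DLX3* was at 4.78 and 6.63 FPKM, a log2 ratio of 0.40, and *MNX1*, a homeobox gene of motor neurons, at 1.29 and 1.58 FPKM, a log2 ratio of 0.17. Whether the lists differ from each other or from other genes was not tested.

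**Figure D4:**
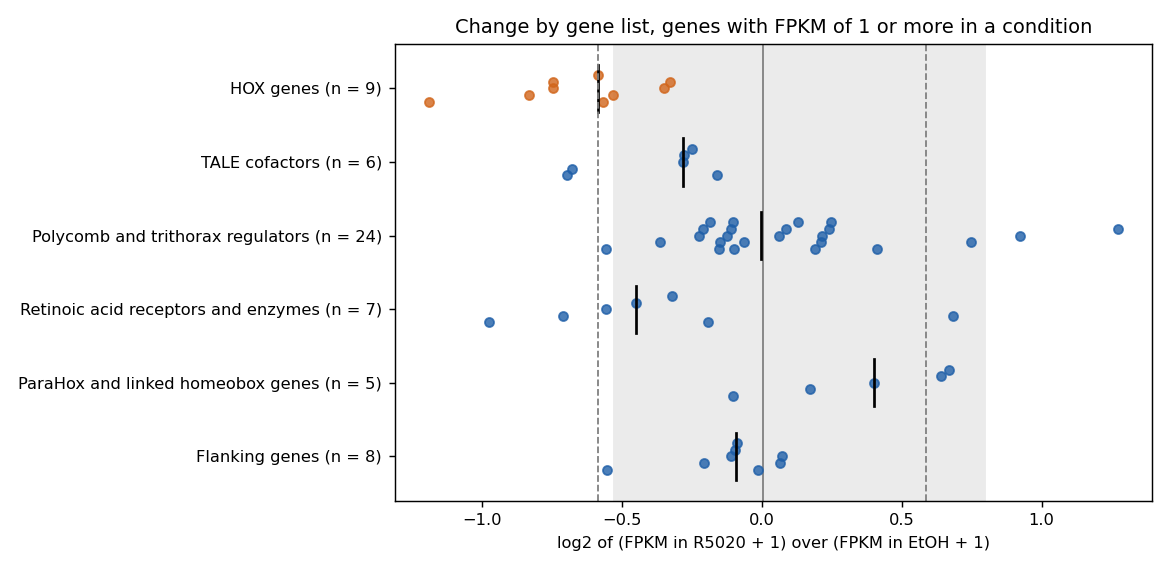
Log2 ratio of R5020 to EtOH for each gene with 1 FPKM or more in at least 1 library, by gene list; black bars are list medians, grey shading spans the 5th to the 95th percentile of all 11018 such genes, the grey line is their median and dashed lines mark 1.5-fold. The 9 HOX genes lie wholly below 0 with a median of -0.58, and the 24 Polycomb and trithorax genes spread on both sides of 0.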

How the data were processed

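RNA-seq of T47D cells after EtOH or R5020 and PR ChIP-seq after R5020 were used, 1 library each. Per the labels, the submitters' notes name TopHat, Cufflinks, Bowtie 1.1.2 and build hg19. The authors deposited FPKM per RefSeq transcript with an interval and a coverage column. Genes were kept at a summed 1 FPKM in either condition, the level used in the study's methods, and transcripts were not filtered. Peaks were called by the authors with MACS on 1 library against input DNA, and each deposited site carries a score that MACS derives from the negative log10 of its p-value. The deposited coverage, times transcript length over 50 nt, gave the estimated reads. Intervals count reads, not cultures.

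FPKM was summed per symbol, and log2 ratios used a pseudocount of 1 and a threshold of 1.5-fold. Sites were placed by midpoint on GENCODE 44 lifted to GRCh37, and distances of genes were taken from the nearest site edge to the extent of the transcripts. Motifs were searched in the central 300 bases of 11178 sites on the primary chromosomes. Scripts ran in Python 3.11.15 (pandas 2.3.3, numpy 2.4.6, pysam 0.24.0) and were tested on simulated data. Every gene matching the symbol rule was accounted for, the expressed ones by name. Other lists were given by counts and up to 4 examples with the largest change. *EZH2*, *HOTTIP*, *HOTAIRM1*, *PRAC*, *LOC100133669* and the marker genes were named outside that rule. Some genes and sequences that these rules select are not reported here. The members, lists and distances were chosen with earlier results of these data known. Alternatives changed the pseudocount, filter, threshold, transcript choice, scaling, site score and distance.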

Additional observations from a re-analysis of the deposited data

How the results depend on the processing

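No paired analysis was possible because each condition had 1 library, and for the same reason none could be left out. Of 160 recomputed log2 values 159 kept their sign and 1, the median with no filter on low FPKM, was 0. All 53 recomputed log2 ratios of the 9 expressed HOX genes stayed below 0. Many of the 160 and of the 53 values could not change sign by construction. A new pseudocount keeps the sign of any ratio, and the transcript choices leave genes with 1 transcript as they were. These counts therefore say little about how firm the direction is. The count of HOX genes at least 1.5-fold lower, 4, was 7 with a pseudocount of 0.1, 7 with none and 1 at a 2-fold threshold. Shares over all genes were computed only at the main settings, so these counts have no background to be read against. The same holds for the counts at other site scores and distances below. The median log2 ratio of -0.58, just short of 1.5-fold, passed it under 6 alternatives: -0.81 with a pseudocount of 0.1, -0.85 with none, -0.67 with the highest transcript of each gene, -0.63 with transcripts that overlap no other HOX gene, -0.60 after rescaling R5020 by 1.008 and -0.59 from interval midpoints. It was -0.58 with a filter of 0.5 FPKM and 0 over all 39 genes with no filter, 15 of which are listed at 0 in both libraries. *HOXC6* ranged from -0.14 (interval midpoints) to -0.79 (highest transcript). The HOXD ratio was 0.89 with a pseudocount of 0.1, on sums below 0.1 FPKM. At a score of at least 100 the sites were 0 at HOXA, 1 at HOXB and 0 at HOXC, and 9 HOX genes had a site within 50 kb. At 10 kb HOXA had 2 sites. The pseudocount-free and midpoint values were added after the data had been seen. With 1 library per condition, reads limit only counting error, and differences between cultures could not be measured.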
